A study of Mus musculus with 6 samples.

Results

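The genes that load, open and copy DNA at replication origins and forks were examined in RNA-seq libraries of CD4 cells cultured toward the regulatory T cell (Treg) fate. The list held 47 genes, chosen by function and matched by symbol, among 56748 genes in the count table. It had 11 genes of origin licensing, 6 of helicase activation, 21 of elongation, 3 of chromatin assembly and 6 of fork protection. All 47 had enough counts to be tested, as did 14936 genes in all.

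Naïve CD4 cells were isolated from spleen and lymph nodes of wild-type C57BL/6 mice aged 6 to 10 weeks and cultured for 3 days. They received plate-bound anti-CD3, soluble anti-CD28, IL-2, TGF-β, anti-IFNγ and anti-IL-4, which together are the Treg polarizing conditions. Antisense oligonucleotides (ASOs, short synthetic strands that pair with a matching RNA) were added to the medium at 10 μM from the start, either scrambled ASOs (3 libraries) or ASOs against *Pgam* (3 libraries), the gene name of the glycolytic enzyme phosphoglycerate mutase. The cells were not sorted before RNA was taken, so each library mixes cells that did and did not become Tregs. Total counts were 17588755, 18032805 and 16231127 under the scrambled ASO label (replicates 1 to 3) and 16589933, 15860476 and 16803881 under the *Pgam* ASO label. The libraries of each label are biological replicates by the study's description, which does not say whether each came from its own animal, so p-values measure the spread between these libraries. Levels are given in counts per 1000000 (CPM) after TMM scaling, and fold changes are the libraries labelled *Pgam* ASO over those labelled scrambled ASO.

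A cell copies its genome once per division in steps that separate loading from firing. In G1, the origin recognition complex, CDC6 and CDT1 place the MCM2-7 helicase on DNA, and geminin (*Gmnn*) blocks CDT1 once S phase has begun so that no origin is licensed again. In S phase CDC45 and the GINS complex join MCM2-7 to form the active helicase, after which primase, polymerases, the sliding clamp and ligase build both strands while fork protection proteins hold helicase and polymerase together. Activated T cells divide fast, and transcription of many of these genes peaks near the start of S phase under E2F factors.

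The targeted genes were looked at first as a check of the labels. *Pgam1* was at 599.6, 478 and 707 CPM under the scrambled ASO label (replicates 1 to 3) and 658, 661 and 707 CPM under the *Pgam* ASO label. These values overlapped, with a log2 fold change of 0.18 (standard error, SE, 0.13; adjusted p = 0.331 by edgeR's quasi-likelihood test, Benjamini-Hochberg method), and the gene has 37.1% of its 31-base stretches in common with other genes. *Pgam2* was at 5.23, 6.75 and 2.85 CPM under the scrambled ASO label (replicates 1 to 3) and 2.98, 2.69 and 2.60 CPM under the *Pgam* ASO label, with a log2 fold change of -0.84 at an adjusted p of 0.0854 in the same edgeR test. With replicate 2 labelled scrambled ASO left out the log2 fold changes were 0.047 in *Pgam1* and -0.56 in *Pgam2*, and with replicate 3 of that label left out 0.33 and -1.11, where *Pgam2* was called lower. The transcript level of neither target passed the test with all 6 libraries, so groups are named by their labels throughout and every direction below is one between labels. *Foxp3*, which encodes the transcription factor that defines Tregs, was at 282, 371 and 222 CPM under the scrambled ASO label (replicates 1 to 3) and 89.7, 109 and 131 CPM under the *Pgam* ASO label. It fell with a log2 fold change of -1.41 (SE 0.20, adjusted p = 0.00567 by edgeR's quasi-likelihood test), without overlap between the labels, and the call held with each library left out in turn. Of its 31-base stretches 26.4% are in common with other genes, most with *Flicr*, a noncoding gene at the same locus.

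Replication genes as a group were higher in the libraries labelled *Pgam* ASO. The fitted log2 fold change was above 0 in 47 of 47 members, where 7378 of the 14936 tested genes were above 0. The members were chosen with earlier results of these data known. Of 25 replication genes outside the list 20 were above 0, with a median of 0.20. A call here means that edgeR's quasi-likelihood test, adjusted over all tested genes, gave a p under 0.05, and by it 18 of 47 members rose, beside 8.03% of all tested genes. Of the members 0 fell, beside 9.15% of all tested genes, and 0 were lower at an unadjusted p under 0.05, by DESeq2's adjusted p or by that of limma-voom. The median log2 fold change of the members was 0.34, against -0.0061 over all tested genes. In 37 of 47 members every library labelled *Pgam* ASO lay above every library labelled scrambled ASO, a pattern that 19.6% of all tested genes showed. The changes were modest in size, from a log2 fold change of 0.075 in *Gins4* to 0.75 in *Orc1*.

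**Figure D1:**
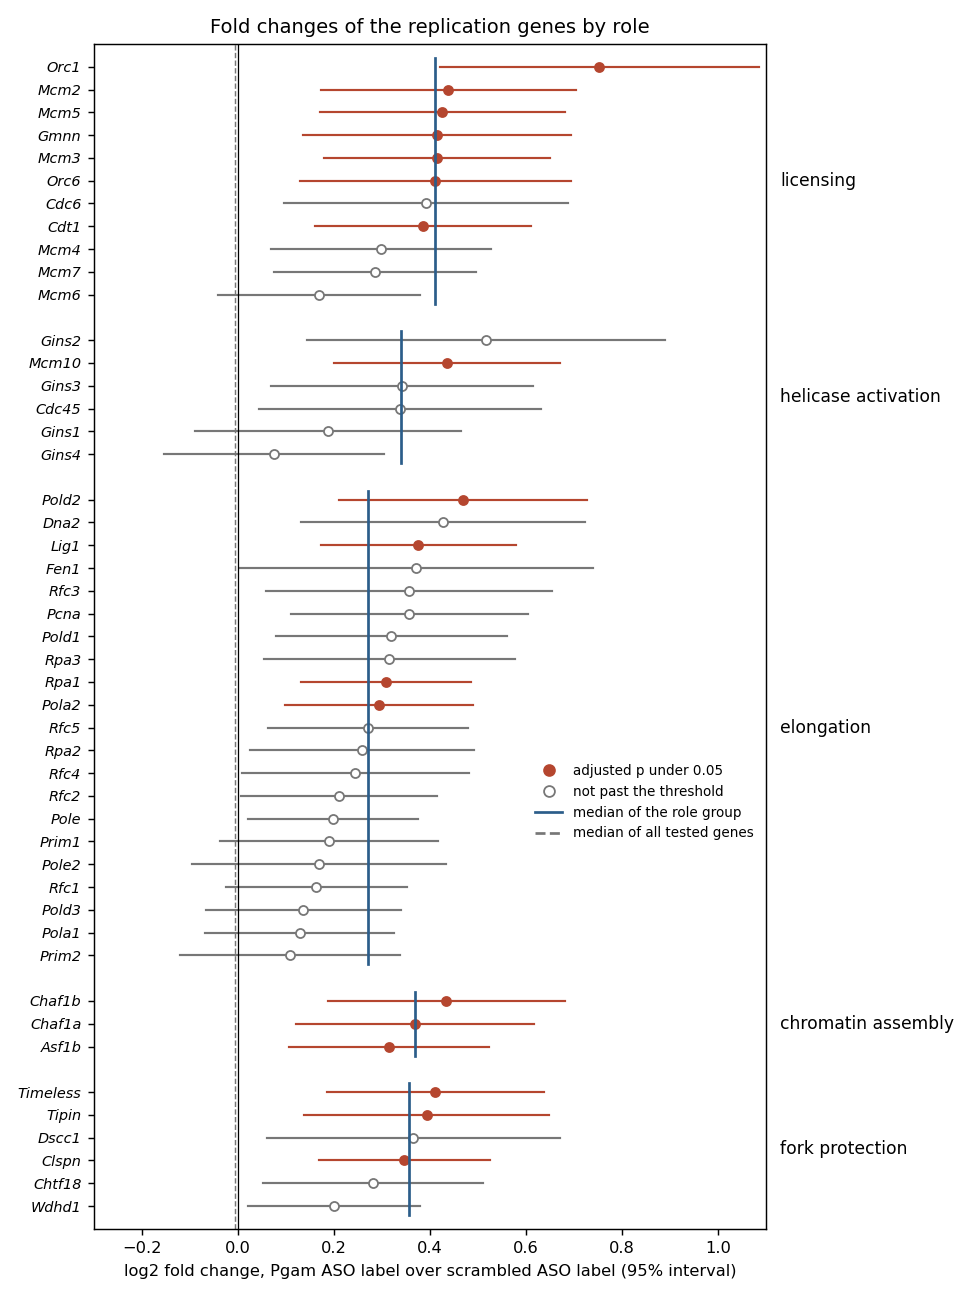
Log2 fold change (x axis) of each of the 47 replication genes (y axis) with its 95% interval, in 5 role groups. Filled red points passed an adjusted p of 0.05, the blue lines are group medians and the dashed line is the median of all 14936 tested genes. All points lie to the right of 0, and the group medians run from 0.27 in elongation to 0.41 in licensing.

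How many members were called depended on single libraries. Without replicate 1 labelled scrambled ASO or replicate 2 labelled *Pgam* ASO the count of called members was 0, while 29 and 25 members had an unadjusted p under 0.05. Without replicate 1 labelled *Pgam* ASO it was 1, without replicate 2 labelled scrambled ASO 4, without replicate 3 labelled *Pgam* ASO 19 and without replicate 3 labelled scrambled ASO 30. The share of all tested genes called higher moved with it. In the order of these 6 fits it was 1.45%, 1.03%, 2.10%, 3.25%, 10.2% and 11.0%. Each call of a member below is therefore a call with all 6 libraries in the fit, and each was lost with at least these 2 libraries left out, replicate 1 labelled scrambled ASO and replicate 2 labelled *Pgam* ASO. The median of the members ran from 0.23 to 0.39 over the 6 fits with a library left out.

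Libraries of the same label were not alike in these genes. Replicate 2 labelled scrambled ASO was the lowest of the 6 libraries in 45 of 47 members, and replicate 1 labelled scrambled ASO in the remaining 2. Over 14881 tested genes with counts in every library, replicate 2 labelled scrambled ASO was the lowest in 4430 and the highest in 4332, more often at either end than any other library, followed by replicate 1 labelled *Pgam* ASO at 3779 and 3770.0. The highest library was replicate 1 labelled *Pgam* ASO in 24 members, replicate 2 labelled *Pgam* ASO in 18, replicate 3 labelled *Pgam* ASO in 4 and replicate 3 labelled scrambled ASO in 1. Set against each gene's mean over the 6 libraries, the median log2 deviation of the members was -0.12, -0.34 and -0.0010 under the scrambled ASO label (replicates 1 to 3) and 0.20, 0.17 and 0.11 under the *Pgam* ASO label. Without replicate 2 labelled scrambled ASO, the lowest library, the median log2 fold change of the members was 0.23, and 46 of 47 stayed above 0, the exception being *Gins4* at -0.019.

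**Figure D2:**
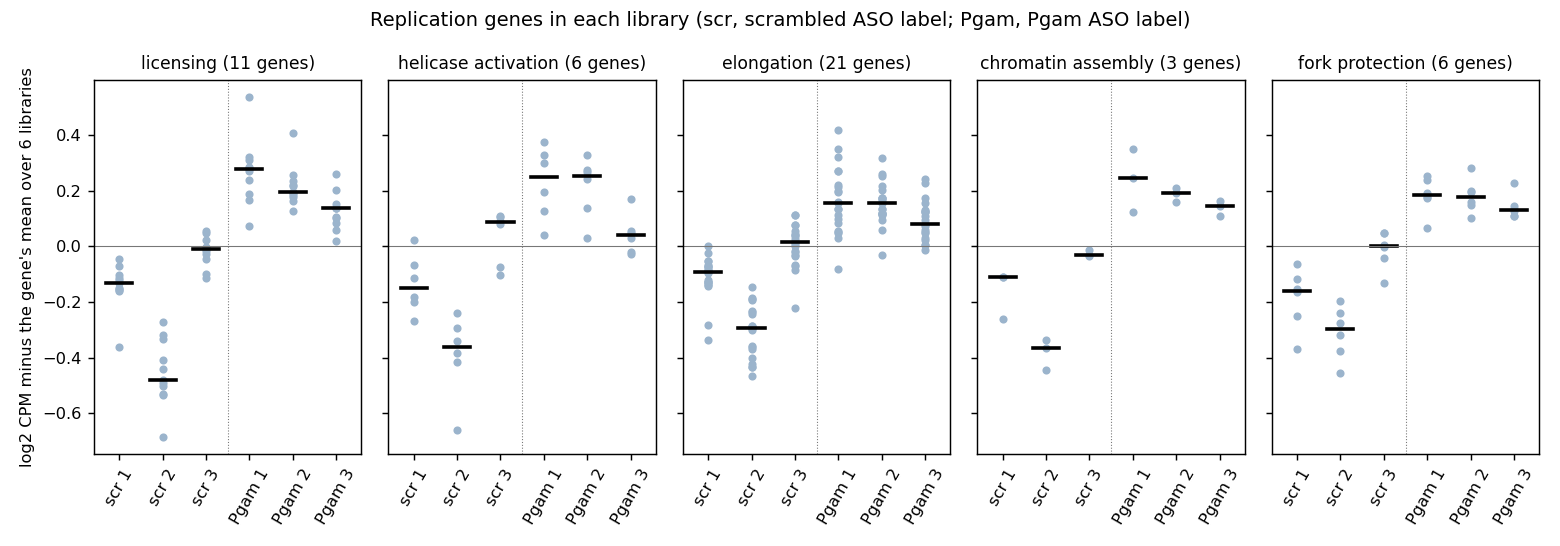
Level of each replication gene in each of the 6 libraries, as log2 CPM minus the gene's own mean over the libraries (y axis), in 5 role groups with replicates along the x axis. Points are genes and black bars are medians. Replicate 2 labelled scrambled ASO lies lowest in all 5 groups, at a median of -0.48 in licensing and -0.29 in elongation.

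The order of the libraries in these genes was the reverse of their order in *Foxp3*. Replicate 2 labelled scrambled ASO had the highest *Foxp3*, 371 CPM, and the lowest replication genes. At the other end, replicate 1 labelled *Pgam* ASO had the lowest *Foxp3*, 89.7 CPM, and the highest median of the replication genes, and the other 4 libraries stood in opposite orders in both measures. *Foxp3* was not the only such marker, since the B cell marker *Ighm*, at 319.9, 447 and 216 CPM under the scrambled ASO label (replicates 1 to 3) and 75.6, 111 and 142 CPM under the *Pgam* ASO label, and the summed CD4 T cell markers given below ran in the same order of libraries as *Foxp3*. *Ighm* is 1 of 5 B cell markers, and the list was mixed, with *Pax5* at a log2 fold change of 0.77. No correlation is given, since the labels form separate clusters of 3 libraries each. In bulk RNA, more cells that make these transcripts and more transcript per cell cannot be told apart, and the part of cell makeup in the result was not tested.

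**Figure D3:**
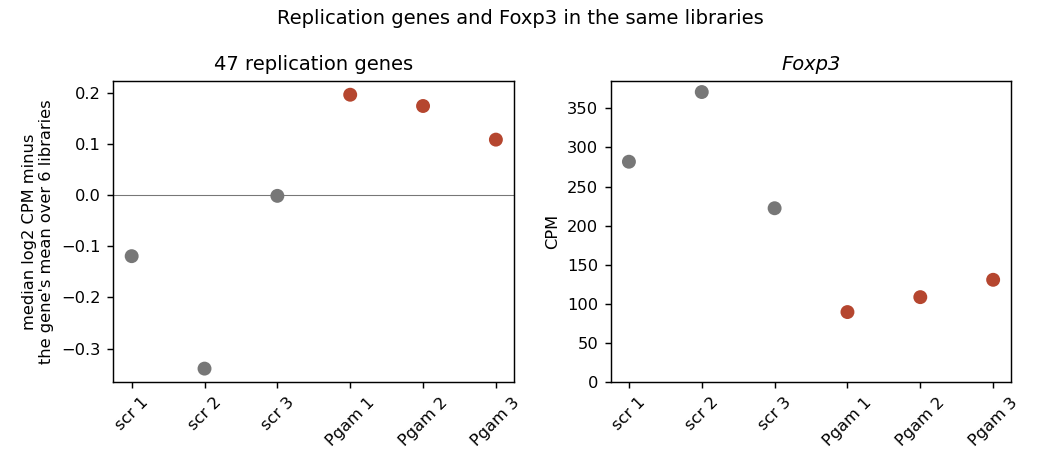
Left, median over the 47 replication genes of log2 CPM minus each gene's mean over the 6 libraries. Right, *Foxp3* in CPM in the same libraries. Gray points are libraries labelled scrambled ASO and red points those labelled *Pgam* ASO. The libraries run in opposite orders, from -0.34 beside 371 CPM to 0.20 beside 89.7 CPM.

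With all 6 libraries, licensing genes had the largest group median and, by count, more calls than any other group. By share chromatin assembly had more, with 3 of 3 called. Without replicate 2 labelled scrambled ASO the median was 0.28 in licensing and 0.29 in fork protection. With all 6 libraries 8.03% of all tested genes rose, 9.15% fell and 19.6% were higher without overlap between the labels. Of 11 licensing genes 7 rose and 0 fell, with a median log2 fold change of 0.41 and no overlap between the labels in 11 of 11. In the edgeR test 0 of them were lower at an unadjusted p under 0.05, and DESeq2 and limma-voom called 0 lower. The count that rose was 0 without replicate 1 labelled scrambled ASO or replicate 2 labelled *Pgam* ASO, 1 without replicate 1 labelled *Pgam* ASO, 2 without replicate 2 labelled scrambled ASO, 6 without replicate 3 labelled *Pgam* ASO and 10 without replicate 3 labelled scrambled ASO. Among the 5 genes that recognize origins, load the helicase or control its loading 4 rose. These were *Orc1*, *Cdt1*, the inhibitor *Gmnn* and *Orc6*, a small subunit of the origin recognition complex whose adjusted p of 0.0499 (edgeR's quasi-likelihood test) lay just inside the threshold. *Cdc6*, the ATPase that helps load MCM2-7, had a log2 fold change of 0.39 at an adjusted p of 0.0662 in that test, and 0.24 without replicate 2 labelled scrambled ASO.

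*Orc1* (ENSMUSG00000028587, chromosome 4, 108579423 to 108614833 on GRCm38), the ATPase subunit at the core of the origin recognition complex, was at 28.6, 22.8 and 34.3 CPM under the scrambled ASO label (replicates 1 to 3) and 53.4, 48.7 and 42.2 CPM under the *Pgam* ASO label. The 3 libraries labelled *Pgam* ASO all lay above the highest labelled scrambled ASO. *Orc1* rose by a log2 fold change of 0.75 (SE 0.15, adjusted p = 0.0123 by edgeR's quasi-likelihood test), which is 1.69-fold with a 95% interval from 1.34 to 2.12. Of the 47 members it had the largest fold change with all libraries and under each of the 15 alternatives. Its call was lost without replicate 1 labelled scrambled ASO or replicate 2 labelled *Pgam* ASO, at log2 fold changes of 0.75 and 0.74. *Orc1* has 11.0% of its 31-base stretches in common with other genes, most with the pseudogene *Gm12743*, so part of its count is uncertain.

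The loader *Cdt1* and its inhibitor *Gmnn* moved together. *Cdt1* (ENSMUSG00000006585, chromosome 8, 122568015 to 122573554 on GRCm38) was at 104, 82.1 and 101 CPM under the scrambled ASO label (replicates 1 to 3) and 132, 123 and 119.8 CPM under the *Pgam* ASO label. *Gmnn* (ENSMUSG00000006715, chromosome 13, 24751845 to 24761923 on GRCm38) was at 64.3, 47.7 and 68.6 CPM under the scrambled ASO label (replicates 1 to 3) and 78.7, 79.2 and 82.8 CPM under the *Pgam* ASO label. In both genes replicate 2 labelled scrambled ASO was the lowest library and the labels did not overlap. *Cdt1* rose by a log2 fold change of 0.39 (SE 0.10, adjusted p = 0.0306) and *Gmnn* by 0.42 (SE 0.13, adjusted p = 0.0471) by edgeR's quasi-likelihood test. Without replicate 2 labelled scrambled ASO neither was called, and the log2 fold change of *Gmnn* was 0.27. Each call was also lost without replicate 1 labelled scrambled ASO or replicate 1 or 2 labelled *Pgam* ASO, and that of *Gmnn* without replicate 3 labelled *Pgam* ASO as well.

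The balance between the loader and its inhibitor was taken as the ratio of their counts in each library. It was 1.61, 1.72 and 1.47 under the scrambled ASO label (replicates 1 to 3) and 1.67, 1.56 and 1.45 under the *Pgam* ASO label. The labels overlapped, and the mean log2 ratio differed by -0.039, *Pgam* ASO minus scrambled ASO, less in size than the SD of 0.12 and 0.10 within each label (exact permutation test, two-sided p = 0.7, adjusted p = 0.7 over 2 ratios, where 3 libraries against 3 can reach 0.1 at the smallest). Without replicate 2 labelled scrambled ASO or replicate 3 labelled *Pgam* ASO the difference turned to 0.014 and 0.013.

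Each of the 6 subunits of the MCM2-7 helicase, the ring that unwinds DNA, was higher in every library labelled *Pgam* ASO than in any labelled scrambled ASO, and 3 of them passed the test. *Mcm2* was at 240.2, 189.8 and 262 CPM under the scrambled ASO label (replicates 1 to 3) and 331, 319.5 and 287 CPM under the *Pgam* ASO label. *Mcm3* was at 355, 289.9 and 381 CPM under the scrambled ASO label (replicates 1 to 3) and 477, 458 and 432 CPM under the *Pgam* ASO label. *Mcm5* was at 329.6, 263 and 363 CPM under the scrambled ASO label (replicates 1 to 3) and 447, 433 and 404 CPM under the *Pgam* ASO label. These 3 subunits rose, with log2 fold changes of 0.44, 0.41 and 0.43 (adjusted p = 0.0343, 0.0284 and 0.0334 by edgeR's quasi-likelihood test). With replicate 1 labelled scrambled ASO or replicate 1 or 2 labelled *Pgam* ASO left out all 3 calls were lost, and those of *Mcm2* and *Mcm5* also without replicate 2 labelled scrambled ASO.

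The remaining subunits *Mcm4*, *Mcm6* and *Mcm7* did not pass the threshold. *Mcm4* was at 298, 257 and 323 CPM under the scrambled ASO label (replicates 1 to 3) and 382, 369 and 328 CPM under the *Pgam* ASO label. *Mcm7* was at 344, 299 and 372 CPM under the scrambled ASO label (replicates 1 to 3) and 418, 423 and 395 CPM under the *Pgam* ASO label. *Mcm6* (ENSMUSG00000026355, chromosome 1, 128331590 to 128359664 on GRCm38) was at 468, 400.5 and 503 CPM under the scrambled ASO label (replicates 1 to 3) and 508, 528 and 504 CPM under the *Pgam* ASO label. The lowest library labelled *Pgam* ASO thus lay just above the highest labelled scrambled ASO in *Mcm4* and *Mcm6*. The log2 fold changes were 0.30 in *Mcm4* and 0.29 in *Mcm7* (adjusted p = 0.0700 and 0.0613 by edgeR's quasi-likelihood test) and 0.17 in *Mcm6* (SE 0.095, adjusted p = 0.236), with a 95% interval from -0.043 to 0.38. The value in *Mcm6* was 0.080 without replicate 2 labelled scrambled ASO. *Mcm7* has 33.4% of its 31-base stretches in common with other genes, and *Mcm6* 1.35%.

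Per kilobase of transcript, *Mcm6* was the most abundant subunit and *Mcm2* the least in all 6 libraries. On that scale *Mcm6* was at 161, 138 and 173 CPM per kilobase under the scrambled ASO label (replicates 1 to 3) and 175, 181 and 173 under the *Pgam* ASO label, and *Mcm2* at 71.2, 56.3 and 77.8 CPM per kilobase under the scrambled ASO label (replicates 1 to 3) and 98.3, 94.8 and 85.1 under the *Pgam* ASO label. The ratio of *Mcm6* to *Mcm2* per kilobase was 2.26, 2.44 and 2.22 under the scrambled ASO label (replicates 1 to 3) and 1.78, 1.91 and 2.04 under the *Pgam* ASO label. The subunits were therefore less spread in level in the libraries labelled *Pgam* ASO, without overlap between the labels, a difference that was picked after its values were seen and was not tested. The summed level of the 6 subunits was between 539.9 and 699 CPM per kilobase with the scrambled ASO label and between 745 and 810.1 with the other label.

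**Figure D4:**
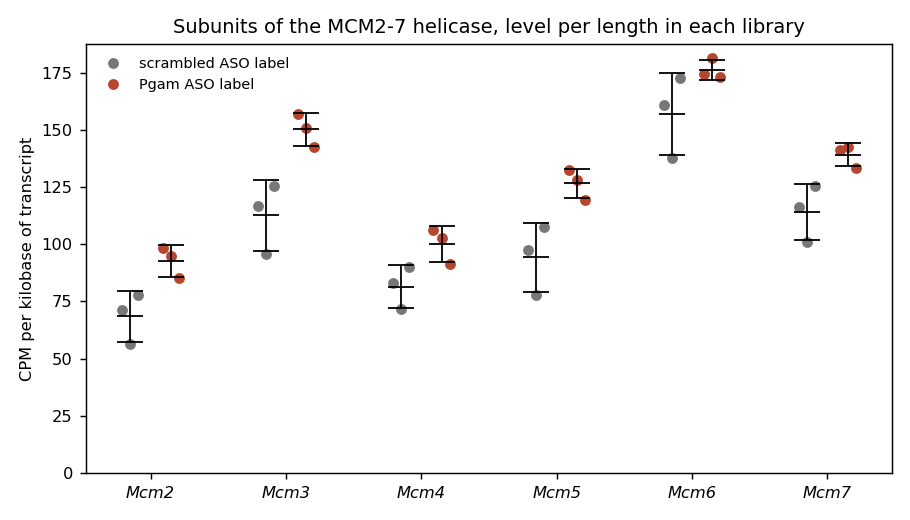
Level of each MCM2-7 subunit in CPM per kilobase of transcript (y axis, from 0) in the 3 libraries of each label (points, replicates 1 to 3 from left to right), with the mean and SD in black. The labels do not overlap in any subunit, and the gap is narrow in *Mcm6*, at a mean of 157 against 176, next to 113 against 150.3 in *Mcm3*.

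Since the members moved together, the sequence around their transcript starts was searched for words of factors known for cell cycle genes. Promoter windows from RefSeq (GRCm38.p6), 250 bases before to 50 after each start, were found for 37 of the 47 members, 42 windows in all. *Dscc1*, *Gins1*, *Gins2*, *Gins4*, *Gmnn*, *Mcm4*, *Pole*, *Prim2*, *Rfc2* and *Tipin* had no entry. The starts are those of RefSeq, and 29 of the 42 lie within 100 bases of the start of the gene in GENCODE M21, 11 farther inside the gene and 2 farther outside. The only window of *Timeless* starts 6001 bases inside that gene. E2F-like words (the word TTGGCGC, the word TTCCCGC, the word TTGCCGC and the word TTCGCGC), read on both strands and with overlapping words counted separately, occurred in 64.3% of the members' windows, beside 9.57% of all 32851 windows and 16.5% of the 12747 windows of tested genes. Longer words with 1 more T in front (TTTGGCGC, TTTCCCGC, TTTGCCGC and TTTCGCGC) occurred in 35.7%, beside 2.26% of all windows and 3.99% of those of tested genes. The word CCAAT, bound by NF-Y and able to overlap an E2F-like word by its CCAA, was in 57.1% of the members' windows and 37.4% of all. The words TTTGAA and TTCGAA of the cell cycle homology region, a motif of genes expressed in G2 and mitosis, were in 19.0% of the members' windows, 19.2% of all and 14.2% of those of tested genes. The E-box CACGTG was in 14.3%, 7.15% and 9.82%. The members' windows had a median GC content of 61.3%, next to 52.7% in all windows and 60.3% in those of tested genes. A match describes the letters in the window and does not show that a factor binds there.

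Shown here are the 250 bases before the start of 5 members that hold such words, read 5′ to 3′ on the strand of the gene, with the E2F-like words in capitals. They were picked to span the range of fold changes, from *Orc1* (log2 fold change 0.75) over *Mcm5* (0.43) and *Cdc6* (0.39) to *Mcm6* (0.17) and *Pola1* (0.13). The RefSeq start of *Cdc6* lies 350 bases inside the gene as placed by GENCODE M21, so its stretch is within the gene there.
Orc1: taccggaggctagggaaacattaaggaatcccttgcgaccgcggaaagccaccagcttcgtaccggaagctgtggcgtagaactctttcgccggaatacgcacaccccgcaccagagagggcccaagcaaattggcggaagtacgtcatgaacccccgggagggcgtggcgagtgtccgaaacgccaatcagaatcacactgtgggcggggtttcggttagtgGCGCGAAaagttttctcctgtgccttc
Cdc6: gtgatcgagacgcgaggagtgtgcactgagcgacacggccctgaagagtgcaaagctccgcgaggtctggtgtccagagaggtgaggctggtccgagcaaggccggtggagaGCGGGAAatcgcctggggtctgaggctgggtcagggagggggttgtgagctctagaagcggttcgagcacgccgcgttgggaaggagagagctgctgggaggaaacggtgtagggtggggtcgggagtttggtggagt
Mcm5: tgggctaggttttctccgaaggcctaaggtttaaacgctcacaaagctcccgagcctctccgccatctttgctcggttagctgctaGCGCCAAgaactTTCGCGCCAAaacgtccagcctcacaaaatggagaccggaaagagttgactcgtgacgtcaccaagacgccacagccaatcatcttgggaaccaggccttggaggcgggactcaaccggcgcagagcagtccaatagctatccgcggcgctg
Mcm6: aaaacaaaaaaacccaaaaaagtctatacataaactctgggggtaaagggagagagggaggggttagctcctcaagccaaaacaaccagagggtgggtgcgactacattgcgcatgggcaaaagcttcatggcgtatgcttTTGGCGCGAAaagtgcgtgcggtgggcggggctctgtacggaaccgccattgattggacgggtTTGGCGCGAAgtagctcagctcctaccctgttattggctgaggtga
Pola1: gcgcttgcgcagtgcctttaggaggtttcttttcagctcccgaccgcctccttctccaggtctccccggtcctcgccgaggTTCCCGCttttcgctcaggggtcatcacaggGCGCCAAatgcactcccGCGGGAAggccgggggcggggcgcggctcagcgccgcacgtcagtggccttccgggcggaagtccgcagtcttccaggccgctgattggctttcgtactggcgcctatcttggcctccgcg
They lie on GRCm38.p6 at chr4:108579204-108579453 (plus strand) for *Orc1*, chr11:98907901-98908150 (plus strand) for *Cdc6*, chr8:75109259-75109508 (plus strand) for *Mcm5*, chr1:128359706-128359955 (minus strand) for *Mcm6* and chrX:93632156-93632405 (minus strand) for *Pola1*. *Mcm6*, which changed least among the MCM2-7 subunits, had 4 words in this stretch and a further 1 after the start. With overlapping words counted separately this was the most of any member window. The words of *Mcm6* in this stretch overlap in pairs, while the 4 words in the window of *Pola1* do not overlap. *Orc1*, which changed most of all members, had 1, while *Mcm3* and *Mcm5*, which also rose, had 3 words each in their windows, some of them overlapping.

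Fold changes of members with and without a word are set side by side here. Of the 25 members with an E2F-like word 8 rose, with a median log2 fold change of 0.32, and of the 12 members with a window but no word 8 rose, with a median of 0.38. For the longer words the order of the medians was the other way, 0.35 in the 15 members with and 0.33 in the 22 without. Of these members 6 of 15 and 10 of 22 rose, and none of these differences was tested. Over all tested genes with a window, 11.3% of the 1951 with a word and 8.51% of the 8063 without were called higher, with medians of 0.065 and -0.010. For the longer words these shares were 14.3% of 482 and 8.78% of 9532 genes. The members without an E2F-like word included *Mcm2*, *Mcm10* and *Pold2*, all of which rose. Of the 47 words in the members' windows 34 lay within 100 bases before or 50 bases after the start. Some members, such as *Cdt1* and *Mcm3*, had words only after the start. In *Lig1* they lay only in windows that start 1543 and 1982 bases inside the gene.

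**Figure D5:**
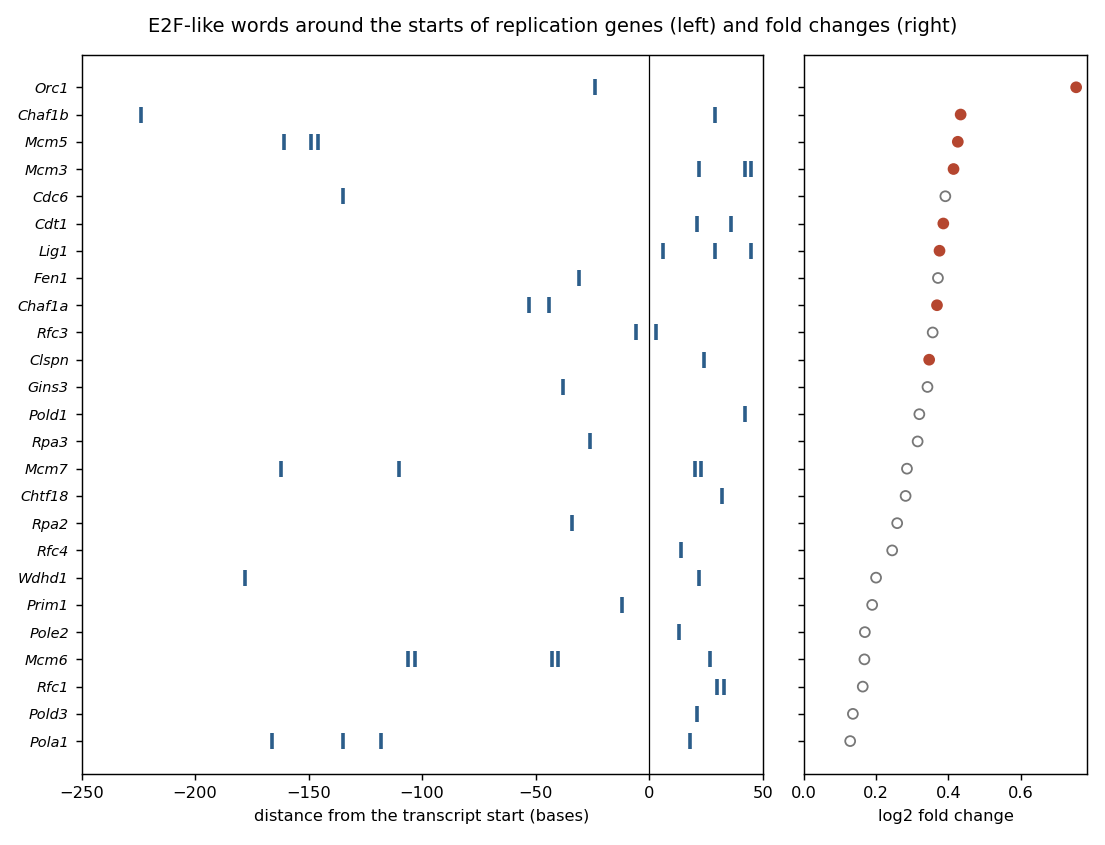
Left, distance in bases of each E2F-like word (mark) from the transcript start, for the 25 members (y axis) whose promoter window holds 1 or more, ordered by fold change. Right, their log2 fold change, filled where the gene rose. Words cluster near the start, and overlapping words are counted separately. *Mcm6*, with 5 words, and *Pola1*, with 4, lie low in the order at log2 fold changes of 0.17 and 0.13, and *Mcm5* and *Mcm3*, with 3 each, lie high at 0.43 and 0.41.

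Helicase activation genes turn the loaded MCM2-7 ring into a working helicase. Of 6 members 1 rose, *Mcm10*, which is needed for the helicase to begin unwinding, with a log2 fold change of 0.44 (SE 0.11, adjusted p = 0.0241 by edgeR's quasi-likelihood test). The count was 0 without replicate 1 or 2 of either label and 3 without replicate 3 of either label. The group median was 0.34, and the labels did not overlap in 3 of 6. Among all tested genes 8.03% rose and 19.6% were higher without overlap. *Gins2*, a subunit of the GINS complex that binds MCM2-7, was at 38.4, 29.3 and 49.8 CPM under the scrambled ASO label (replicates 1 to 3) and 59.9, 55.9 and 52.0 CPM under the *Pgam* ASO label. *Gins4*, another GINS subunit, was at 47.5, 39.6 and 49.8 CPM under the scrambled ASO label (replicates 1 to 3) and 48.1, 47.7 and 48.3 CPM under the *Pgam* ASO label. Libraries of different labels overlapped in *Gins4*, where only replicate 2 labelled scrambled ASO stood clearly apart, and did not in *Gins2*.

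The 4 GINS subunits, which work in equal number in the complex, had unlike log2 fold changes of 0.19 in *Gins1*, 0.52 in *Gins2*, 0.34 in *Gins3* and 0.075 in *Gins4*, and *Cdc45*, the partner of GINS in the helicase, had 0.34. None of these 5 passed in edgeR's quasi-likelihood test, where their adjusted p ran from 0.0586 to 0.643. Without replicate 2 labelled scrambled ASO the values were 0.074 in *Gins1*, 0.34 in *Gins2*, -0.019 in *Gins4* and 0.22 in *Cdc45*, and without replicate 3 of that label 0.30 in *Gins1* and 0.14 in *Gins4*. *Gins2* is uncertain, since it shares 66.2% of its 31-base stretches with *Gse1*. With the counts of both genes summed, the log2 fold change was -0.11 in place of 0.52. *Gse1* had 6383 counts over the libraries and *Gins2* at most 965 in any library. The sum thus holds more of *Gse1* and does not decide how uncertain the value of *Gins2* is.

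The elongation genes, 21 in number, had the lowest group median, 0.27. Of these 4 rose (*Pola2*, *Pold2*, *Rpa1* and *Lig1*) and 0 fell, 0 were lower at an unadjusted p under 0.05, and DESeq2 and limma-voom called 0 lower. Among all tested genes 8.03% rose and 19.6% were higher without overlap. In the elongation genes the labels did not overlap in 14 of 21. The count that rose was 0 without replicate 1 labelled scrambled ASO or replicate 1 or 2 labelled *Pgam* ASO, 1 without replicate 2 labelled scrambled ASO, 5 without replicate 3 labelled *Pgam* ASO and 9 without replicate 3 labelled scrambled ASO.

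Polymerases and primase had the lowest median log2 fold change of that group's subgroups, with 2 of 9 called and a median of 0.19, which was 0.096 without replicate 2 labelled scrambled ASO. *Pold2* (ENSMUSG00000020471, chromosome 11, 5872180 to 5878292 on GRCm38), the accessory subunit that joins the parts of polymerase δ, was at 58.4, 52.7 and 71.2 CPM under the scrambled ASO label (replicates 1 to 3) and 85.8, 88.7 and 77.6 CPM under the *Pgam* ASO label. *Prim2*, the large subunit of the primase that starts each new strand with RNA, was at 53.3, 52.7 and 63.0 CPM under the scrambled ASO label (replicates 1 to 3) and 55.2, 63.5 and 63.5 CPM under the *Pgam* ASO label. *Pold2* rose without overlap by a log2 fold change of 0.47 (SE 0.12, adjusted p = 0.0255 by edgeR's quasi-likelihood test), whereas *Prim2* overlapped between labels at 0.11 (adjusted p = 0.490). *Pola2*, the second largest subunit of polymerase α, rose by 0.29 (adjusted p = 0.0462 by edgeR's quasi-likelihood test). Both calls were lost without replicate 1 or 2 of either label. The polymerase α catalytic subunit *Pola1*, the small primase subunit *Prim1*, the polymerase δ subunit *Pold3* and the polymerase ε subunit *Pole2* had log2 fold changes of 0.13, 0.19, 0.14 and 0.17, each with overlap between the labels. Without replicate 2 labelled scrambled ASO these were 0.070, 0.10, 0.058 and 0.071, and without replicate 3 of that label 0.21 in *Pola1* and 0.28 in *Pole2*. *Prim2* ran from 0.061 without replicate 2 to 0.20 without replicate 3 labelled scrambled ASO.

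The catalytic subunits of the main fork polymerases were compared with each other. *Pole*, of polymerase ε on the leading strand, was at 158, 145 and 163 CPM under the scrambled ASO label (replicates 1 to 3) and 176, 183 and 176 CPM under the *Pgam* ASO label. *Pold1*, of polymerase δ on the lagging strand, was at 190.3, 162 and 211 CPM under the scrambled ASO label (replicates 1 to 3) and 252, 218 and 233 CPM under the *Pgam* ASO label. The labels did not overlap in either, but neither passed the threshold, with log2 fold changes of 0.20 and 0.32 (adjusted p = 0.107 and 0.0652 by edgeR's quasi-likelihood test). The ratio of *Pole* to *Pold1* counts, not corrected for length, was 0.830, 0.899 and 0.770 under the scrambled ASO label (replicates 1 to 3) and 0.699, 0.839 and 0.755 under the *Pgam* ASO label. Its log2 value differed by -0.13 with overlap between the labels (exact permutation test, two-sided p = 0.3, adjusted p = 0.6 over 2 ratios). The size of this difference, but not its sign, varied with the library left out, over the range given in the closing section.

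The sliding clamp PCNA tethers polymerases to DNA, and replication factor C (RFC) opens the clamp to load it. In this subgroup 0 of 6 passed the threshold in edgeR's quasi-likelihood test, while 5 of 6 had an unadjusted p under 0.05, DESeq2 called 1 and limma-voom 1. *Pcna* was at 366, 296 and 402 CPM under the scrambled ASO label (replicates 1 to 3) and 447, 479 and 438 CPM under the *Pgam* ASO label. *Rfc3*, a small RFC subunit, was at 50.6, 39.9 and 56.4 CPM under the scrambled ASO label (replicates 1 to 3) and 68.8, 64.0 and 55.3 CPM under the *Pgam* ASO label. *Rfc1*, the large RFC subunit, was at 150.1, 139 and 159.6 CPM under the scrambled ASO label (replicates 1 to 3) and 161, 176 and 165 CPM under the *Pgam* ASO label. *Pcna* lay just outside the threshold without overlap between labels (log2 fold change 0.36, adjusted p = 0.0516 by edgeR's quasi-likelihood test), with a value next to that of *Rfc3* (0.36), where the labels overlapped, and above that of *Rfc1* (0.16). The value in *Rfc3* was 0.23 without replicate 2 labelled scrambled ASO. The other RFC subunits *Rfc2*, *Rfc4* and *Rfc5* had log2 fold changes of 0.21, 0.24 and 0.27. Per kilobase of transcript *Pcna* was the most abundant of the 47 members, at 234 and 299 CPM per kilobase on average in the libraries labelled scrambled ASO and *Pgam* ASO.

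Replication protein A covers the unwound single strands. *Rpa1*, its large subunit, rose with a log2 fold change of 0.31 (SE 0.080, adjusted p = 0.0295 by edgeR's quasi-likelihood test), a call lost without replicate 1 or 2 of either label. *Rpa3*, the small subunit, was at 35.1, 27.5 and 35.5 CPM under the scrambled ASO label (replicates 1 to 3) and 39.9, 43.3 and 38.8 CPM under the *Pgam* ASO label. *Rpa2*, the middle subunit, was at 84.9, 69.5 and 90.6 CPM under the scrambled ASO label (replicates 1 to 3) and 102, 96.8 and 94.1 CPM under the *Pgam* ASO label. All 3 subunits had no overlap between the labels, and the log2 fold changes of *Rpa2* and *Rpa3* were 0.26 and 0.31 (adjusted p = 0.109 and 0.0879 in the same edgeR test), and 0.15 and 0.20 without replicate 2 labelled scrambled ASO.

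Okazaki fragments, the short pieces of the lagging strand, are trimmed by the nucleases FEN1 and DNA2 and sealed by DNA ligase I. *Lig1* (ENSMUSG00000056394, chromosome 7, 13277283 to 13311433 on GRCm38) rose with a log2 fold change of 0.38 (SE 0.092, adjusted p = 0.0245 by edgeR's quasi-likelihood test), a call lost without replicate 1 labelled scrambled ASO or replicate 1 or 2 labelled *Pgam* ASO. *Dna2* was at 35.96, 26.8 and 30.8 CPM under the scrambled ASO label (replicates 1 to 3) and 48.0, 39.0 and 38.8 CPM under the *Pgam* ASO label. *Fen1* was at 10.2, 10.5 and 13.6 CPM under the scrambled ASO label (replicates 1 to 3) and 16.5, 12.6 and 15.3 CPM under the *Pgam* ASO label. *Dna2* lay just outside the threshold at a log2 fold change of 0.43 (adjusted p = 0.0513 by edgeR's quasi-likelihood test) without overlap, and *Fen1* had 0.37 (adjusted p = 0.140) with overlap. *Fen1* is uncertain, since it has 79.6% of its 31-base stretches in common with other genes, most with the pseudogene *Gm10143*, and had the lowest level per kilobase of the 47 members.

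All 3 chromatin assembly genes, whose products place histones on the new DNA, rose, beside 8.03% of all tested genes. *Chaf1b* (ENSMUSG00000022945, chromosome 16, 93883901 to 93906115 on GRCm38), a subunit of chromatin assembly factor 1, was at 39.6, 36.8 and 46.4 CPM under the scrambled ASO label (replicates 1 to 3) and 60.4, 52.9 and 52.4 CPM under the *Pgam* ASO label. *Asf1b*, which hands histones to that factor, was at 78.8, 67.4 and 83.0 CPM under the scrambled ASO label (replicates 1 to 3) and 92.7, 97.3 and 95.1 CPM under the *Pgam* ASO label. In both the libraries labelled *Pgam* ASO lay above all others, with log2 fold changes of 0.43 and 0.32 (adjusted p = 0.0283 and 0.0445 by edgeR's quasi-likelihood test). *Chaf1a*, the large subunit of the factor, rose by 0.37 (adjusted p = 0.0474 by edgeR's quasi-likelihood test). It shares 51.0% of its 31-base stretches with *Ubxn6*, and with both genes summed the log2 fold change was 0.26 and the adjusted p 0.0929. The count that rose was 0 without replicate 1 or 2 of either label, 2 without replicate 3 labelled *Pgam* ASO and 3 without replicate 3 labelled scrambled ASO.

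Fork protection genes keep helicase and polymerase coupled and signal stalled forks. Of 6 members 3 rose (*Timeless*, *Tipin* and *Clspn*), with a group median of 0.36 and no overlap between the labels in 6 of 6. Among all tested genes 8.03% rose and 19.6% were higher without overlap. *Timeless* (ENSMUSG00000039994, chromosome 10, 128232065 to 128252941 on GRCm38), the scaffold of the fork protection complex, was at 102, 93.7 and 121 CPM under the scrambled ASO label (replicates 1 to 3) and 143, 136 and 142 CPM under the *Pgam* ASO label. *Wdhd1*, which links the helicase to polymerase α, was at 93.1, 84.9 and 94.7 CPM under the scrambled ASO label (replicates 1 to 3) and 102, 105 and 107 CPM under the *Pgam* ASO label. Replicate 2 labelled scrambled ASO was the lowest library in both, and the gap between labels was wider in *Timeless*.

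*Timeless* rose by a log2 fold change of 0.41 (SE 0.10, adjusted p = 0.0252), and its binding partner *Tipin* by 0.39 (adjusted p = 0.0426) by edgeR's quasi-likelihood test. *Clspn*, which encodes claspin, the adaptor through which ATR activates CHK1, rose by 0.35 (SE 0.080, adjusted p = 0.0208 by edgeR's quasi-likelihood test). The members of the group not called were *Wdhd1* at 0.20 and the subunits of the alternative clamp loader *Dscc1* at 0.37 and *Chtf18* at 0.28. The count that rose was 0 without replicate 1 labelled scrambled ASO or replicate 1 or 2 labelled *Pgam* ASO, 1 without replicate 2 labelled scrambled ASO, 3 without replicate 3 labelled *Pgam* ASO and 5 without replicate 3 labelled scrambled ASO.

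Side by side, 7 of 11 licensing genes, 4 of 21 elongation genes and 3 of 6 fork protection genes rose, with medians of 0.41, 0.27 and 0.36. In the same order of groups DESeq2 called 10, 7 and 3 genes higher and limma-voom 7, 5 and 3. Over all tested genes edgeR called 8.03% higher, DESeq2 10.4% and limma-voom 7.99%. The middle 50% of log2 fold changes ran from 0.34 to 0.42 in licensing, from 0.19 to 0.36 in elongation and from 0.30 to 0.39 in fork protection, so the groups overlapped. The order of the medians was the same with all but replicate 2 labelled scrambled ASO left out in turn, when licensing and fork protection were at 0.28 and 0.29 and elongation at 0.19. Between these groups no difference was tested. The libraries labelled scrambled ASO differed most in licensing genes, where replicates 1, 2 and 3 had median deviations of -0.13, -0.48 and -0.010, beside -0.092, -0.29 and 0.015 in elongation and -0.16, -0.30 and 0.0011 in fork protection.

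Shared sequence bears on 11 of the 47 members, those with at least 10% of their 31-base stretches in other genes. Of these 11, 2 rose (*Orc1* and *Chaf1a*) with a median log2 fold change of 0.31, and of the other 36 members 16 rose with a median of 0.34. Beside those named above they are *Pcna* at 23.3% (most with a pseudogene of *Pcna*), *Rfc2* at 19.4%, *Rfc5* at 19.3%, *Rpa3* at 13.4%, *Pole2* at 11.0% and *Rfc4* at 10.5%. *Rfc4* shares sequence with *Eif4a2*, and with both genes summed the log2 fold change was 0.052 in place of 0.24. *Eif4a2* had 47275 counts over the libraries and *Rfc4* at most 936 in any library. The sum is thus mostly *Eif4a2* and does not decide how uncertain the value of *Rfc4* is.

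Other replication genes, outside the 47, were mixed. They are set beside all tested genes, of which 8.03% rose and 9.15% fell. Of 12 genes of origins and origin firing 3 rose and 0 fell by edgeR's quasi-likelihood test, 0 were lower at an unadjusted p under 0.05, DESeq2 called 3 higher and 0 lower and limma-voom 3 and 0, and the median log2 fold change was 0.20. *Recql4*, a helicase needed for origin firing, *Orc2*, an origin recognition subunit, and *Mtbp*, a partner of the firing factor treslin, rose by 0.58, 0.42 and 0.36. All 3 calls were lost without replicate 1 or 2 of either label, and *Orc2* has 27.9% of its 31-base stretches in common with other genes. Of 13 genes of elongation and maturation 3 rose and 1 fell, with a median of 0.20. In the edgeR test 1 was lower at an unadjusted p under 0.05, DESeq2 called 5 higher and 1 lower and limma-voom 4 and 1.

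The smallest subunits of both fork polymerases, which are not among the 47, moved in opposite directions. *Pole4*, a histone-fold subunit of polymerase ε, was at 55.0, 44.5 and 59.2 CPM under the scrambled ASO label (replicates 1 to 3) and 86.8, 85.5 and 82.2 CPM under the *Pgam* ASO label. *Pold4*, the smallest subunit of polymerase δ, was at 34.0, 37.6 and 37.3 CPM under the scrambled ASO label (replicates 1 to 3) and 17.3, 17.8 and 26.8 CPM under the *Pgam* ASO label. Neither gene had overlap between labels, and replicate 3 labelled *Pgam* ASO was the nearest to the libraries labelled scrambled ASO in both. *Pole4* rose by a log2 fold change of 0.68 (SE 0.11, adjusted p = 0.00504) and *Pold4* fell by 0.81 on the log2 scale (SE 0.16, adjusted p = 0.0126) by edgeR's quasi-likelihood test. The call of *Pole4* held with each library left out, and that of *Pold4* was lost only without replicate 2 labelled *Pgam* ASO, at -0.72. *Pold4* has 23.0% of its 31-base stretches in common with other genes and *Pole4* 0.639%. *Rnaseh2c*, a subunit of the nuclease that removes RNA from DNA, rose by 0.41, a call lost without replicate 1 or 2 of either label, and shares 22.4% of its 31-base stretches with *Kat5*.

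Of 9 replication checkpoint genes, those that sense stalled forks and hold back the cell cycle, 0 passed the threshold in edgeR's quasi-likelihood test, 2 were higher and 0 lower at an unadjusted p under 0.05, DESeq2 called 0 higher and 0 lower and limma-voom 0 and 0, and the median was 0.13. Of 13 E2F and pocket protein genes 4 rose and 0 fell, beside 8.03% and 9.15% of all tested genes. Of the 13, 1 was lower at an unadjusted p under 0.05. DESeq2 called 4 higher and 0 lower and limma-voom 4 and 0, and the median was 0.23. *Tfdp1*, the DNA-binding partner of E2F factors, was at 292, 255 and 297 CPM under the scrambled ASO label (replicates 1 to 3) and 423, 408 and 359.6 CPM under the *Pgam* ASO label. It rose without overlap by a log2 fold change of 0.50 (adjusted p = 0.0109 by edgeR's quasi-likelihood test), a call lost only without replicate 2 labelled *Pgam* ASO, and shares 21.7% of its 31-base stretches. *E2f3* and *E2f4* rose by 0.38 and 0.36, calls lost without replicate 1 or 2 of either label.

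Of 10 cell cycle markers 6 rose, beside 8.03% of all tested genes, with a median of 0.33. The summed level of the 10 was 2920.3, 2584 and 2892 CPM under the scrambled ASO label (replicates 1 to 3) and 3025, 3175 and 3089 CPM under the *Pgam* ASO label. The largest log2 fold changes were 0.48 in the mitotic kinase *Plk1*, 0.44 in *Cdk1* and 0.41 in the mitotic cyclin *Ccnb1* (adjusted p = 0.0191, 0.0239 and 0.0420 by edgeR's quasi-likelihood test). These calls were lost without replicate 1 labelled scrambled ASO or replicate 1 or 2 labelled *Pgam* ASO, and that of *Ccnb1* also without replicate 2 labelled scrambled ASO. *Ccnb1* shares 27.8% and *Plk1* 18.7% of the 31-base stretches, mainly with their pseudogenes, so both values are uncertain. *Mki67*, the proliferation marker Ki-67 and the most abundant gene of the list, was chosen after its values were seen and was at 1433, 1280.1 and 1375 CPM under the scrambled ASO label (replicates 1 to 3) and 1319.6, 1425 and 1335 CPM under the *Pgam* ASO label. It overlapped between the labels, with a log2 fold change of -0.0031 (95% interval -0.18 to 0.17, adjusted p = 0.982 by edgeR's quasi-likelihood test) that ran from -0.047 without replicate 2 to 0.031 without replicate 1 labelled scrambled ASO.

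Lists of cell type markers are given beside these values by their sums and the genes that stand out. All 7 CD4 T cell markers were present and lower in every library labelled *Pgam* ASO than in any labelled scrambled ASO. Their summed level was 2629, 2885 and 2429 CPM under the scrambled ASO label (replicates 1 to 3) and 1997, 2052 and 2128 CPM under the *Pgam* ASO label, *Cd4* being the most abundant. Of them 3 fell, *Cd28* by 0.66, *Cd5* by 0.49 and *Trac* by 0.30 on the log2 scale in edgeR's quasi-likelihood test. The call of *Cd5* was lost without replicate 1 labelled scrambled ASO or replicate 2 labelled *Pgam* ASO, and that of *Trac* without replicate 1 or 2 of either label.

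The 2 CD8 markers summed to 11.3, 13.5 and 10.8 CPM under the scrambled ASO label (replicates 1 to 3) and 14.6, 10.9 and 15.7 CPM under the *Pgam* ASO label. *Cd8b1* was the more abundant, and it was not called, at a log2 fold change of -0.20 with overlap between the labels. *Cd8a* rose by a log2 fold change of 1.12, a call lost without replicate 1 of either label. The 5 B cell markers summed to 328, 458 and 221 CPM and to 82.2, 117 and 148 CPM, nearly all from *Ighm*, which fell by 1.58 on the log2 scale, a call lost without replicate 1 or 2 of either label. DESeq2 called 2 of the 5 lower, *Ighm* and *Cd79a*, the latter at a log2 fold change of -1.04 and with overlap between the labels. *Cd79b*, *Ms4a1* and *Pax5* had log2 fold changes of -0.24, -0.21 and 0.77, each with overlap between the labels and not called by edgeR or DESeq2. *Ms4a1* and *Pax5* stayed at or under 2.55 CPM in each library. The part of these markers in the result was not tested.

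Markers of the remaining cell types were low, those of NK cells at or near 0. The 4 NK cell markers summed to 0.225, 0.594 and 0.124 CPM under the scrambled ASO label (replicates 1 to 3) and 0.186, 0.192 and 0.296 CPM under the *Pgam* ASO label, with *Klre1* the most abundant and *Klrb1c* and *Klra8* at 0 throughout. The 10 myeloid and dendritic cell markers summed to 11.2, 10.96 and 10.2 CPM and to 11.5, 9.88 and 10.7 CPM, with *Cd68* the most abundant. The 5 mast cell and basophil markers summed to 6.36, 7.29 and 7.37 CPM and to 5.03, 5.45 and 5.74 CPM, with *Kit* the most abundant by mean level under the scrambled ASO label and *Cpa3* by mean under the other, though not in its replicate 3. The genes of this list went in different directions. *Kit* fell by 1.68 on the log2 scale, a call lost without replicate 1 labelled scrambled ASO or replicate 2 labelled *Pgam* ASO. *Cpa3* was higher in all 3 libraries labelled *Pgam* ASO, at a log2 fold change of 1.09 and adjusted p of 0.0526 by edgeR's quasi-likelihood test, just outside the threshold, and DESeq2 and limma-voom each called 1 gene of the list higher. It was called without replicate 2 labelled scrambled ASO, at 1.43. *Fcer1a* and *Mcpt8*, too low to be tested with all 6 libraries, were also higher in all 3, at up to 0.994 CPM. *Mcpt8* passed the filter in 4 of the 6 fits with a library left out, at log2 fold changes from 2.13 to 3.43, and was called in 2, those without replicate 3 of either label. *Cpa3*, *Fcer1a*, *Mcpt8* and *Cd79a* were named after their values were seen. The 6 erythroid markers summed to 2.87, 2.32 and 1.55 CPM and to 1.55, 2.12 and 2.49 CPM, with *Alas2* the most abundant and *Hba-a2* at 0 throughout.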

How the data were processed

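RNA-seq of 6 libraries was used, 3 per label. The authors deposited whole-number estimated counts per gene, made with Kallisto (version not stated; GRCm38 is named for the mouse reference) and not normalized. The members and the other gene lists were chosen with earlier results of these data known. Genes were matched by symbol and placed on GRCm38 with GENCODE M21, which holds 52125 of the 56748 genes of the table. The annotation behind the counts is not stated, so lengths and shared sequence may differ from those used to make them. Length is that of the longest principal protein-coding transcript, and shared sequence is the percent of 31-base stretches of a gene's transcripts that also occur in other genes. Low counts were filtered with filterByExpr, scaled with TMM and tested with the quasi-likelihood test of edgeR 4.0.16 in R 4.3.3, robust, adjusted by Benjamini-Hochberg over 14936 genes at a threshold of 0.05. DESeq2 1.42.0, limma 3.58.1 (voom), other filters and scalings, a replicate block and leaving out each library were alternatives. The procedure was tested on simulated data, where it recovered 72.8% of 2-fold changes and 2.80% of its calls were false. Changes as small as those of the members were not simulated. Values in every library are given for the members with the largest and smallest fold change of each subgroup, MCM2-7, *Cdt1*, *Gmnn*, *Pcna*, *Pole* and *Pold1*, and at most 3 called genes of each other list are named. Promoter sequences are from RefSeq (GRCm38.p6).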

Additional observations from a re-analysis of the deposited data

How the results depend on the processing

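The fitted log2 fold change was above 0 in 45 of 47 members under every alternative, *Gins2* and *Gins4* being the exceptions, and no alternative called a member lower. *Gins4* ran from -0.019 to 0.14 with a library left out. *Gins2* was at -0.11 with its counts summed with the gene sharing its sequence, an alternative chosen after seeing the data. That sum holds more counts of the other gene than of *Gins2*. The count of members called higher was 18, and 13 to 27 under DESeq2, limma-voom, other scalings and filters and summed counts. It was 2 of 47 with replicate number as a block, beside 3.21% of all tested genes. The count was 0 at an adjusted p under 0.01 and 0 to 30 with a library left out, and the cause was not tested. Whether replicate numbers pair the libraries is not stated. Libraries with the same number correlated at 0.053, -0.034 and -0.24 after the mean of each label was removed. Those with different numbers ran from -0.25 to 0.28. With 3 libraries per label these values show no pairing by number but cannot exclude it. The median of the members was 0.23 to 0.39 with a library left out and 0.30 to 0.35 under the other alternatives. With a library left out, group medians were 0.28 to 0.52 in licensing, 0.25 to 0.44 in helicase activation, 0.19 to 0.33 in elongation, 0.25 to 0.46 in chromatin assembly and 0.29 to 0.44 in fork protection. The log2 difference in the ratio of *Cdt1* to *Gmnn* ran from -0.10 to 0.014, and that of *Pole* to *Pold1* from -0.20 to -0.064. With 3 libraries per label, small changes in single members are poorly resolved.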
